A study of Mus musculus with 48 samples.

Results

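The miR-34 family was followed through 48 small RNA libraries of mouse ganglia as 5 mature microRNAs (miRNAs), chosen by name from a table of 1978 mature miRNAs. They are listed there as mmu-miR-34a-5p, mmu-miR-34b-5p, mmu-miR-34b-3p, mmu-miR-34c-5p and mmu-miR-34c-3p, and the prefix for mouse is left out from here on. The libraries came from Balb/c mice aged 2.5 months that had been injected intraperitoneally with lipopolysaccharide (LPS) of Escherichia coli O55:B5 at a dose of 2.5 mg/kg, or with saline alone. The injected volume was 0.2 mL. LPS is a bacterial outer membrane component that sets off systemic inflammation. The trigeminal ganglion (TG), which holds the sensory neurons of the face, and the SCG, the superior cervical ganglion at the upper end of the sympathetic chain, were taken 4 h, 24 h or 7 d later. The 12 groups were TG 4 h LPS, TG 4 h saline, TG 24 h LPS, TG 24 h saline, TG 7 d LPS, TG 7 d saline and the same 6 combinations in SCG, with 4 libraries each, 2 from female and 2 from male mice. Both ganglia of a kind of a mouse went into 1 RNA sample. A whole ganglion holds neurons, glia, vessels and connective tissue, so fewer cells of a type and less RNA per cell cannot be told apart in these values.

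The genes of the miR-34 family are direct transcriptional targets of p53, the transcription factor that answers DNA damage and other stress, and their miRNAs repress regulators of the cell cycle and of survival. MiR-34a is made from a gene of its own and is widely expressed, the brain included. MiR-34b and miR-34c come from 1 shared transcript and are best known from testis and from multiciliated epithelium, where the related miR-449 cluster is also made. A miRNA finds its targets mainly through its seed, bases 2 to 8 from the 5′ end, so members with 1 seed are expected to share many targets.

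The mature sequences are shown because the family is defined by its seed and because near-identical arms bear on how reads can be assigned. RefSeq sequences matched 4 of the 5 members, and the same-seed relative miR-449a-5p is added. Each is written 5′ to 3′ with the seed in capitals.
miR-34a-5p: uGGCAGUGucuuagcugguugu
miR-34b-5p: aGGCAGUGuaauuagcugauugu
miR-449a-5p: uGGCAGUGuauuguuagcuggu
miR-34b-3p: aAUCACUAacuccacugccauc
miR-34c-3p: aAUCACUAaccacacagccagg
The 5p arms printed here carried the seed GGCAGUG, and both 3p arms carried AUCACUA. MiR-34b-3p and miR-34c-3p had the same base at 17 of 22 positions and were identical over their first 10 bases, so counts of short or mismatched reads could be shared between them. Compared from the 5′ end with no gap, miR-34a-5p and miR-34b-5p had the same base at 11 of 22 positions. MiR-34b-5p has 23 bases and miR-34a-5p 22, and an alignment with a gap would match more of their 3′ ends.

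On GRCm38.p6 RefSeq places the Mir34a hairpin at chr4:150068454-150068555 on the plus strand, where its last 17 bases overlap an exon of Gm37795, a transcript of undetermined type on the same strand in the GENCODE annotation. The Mir34c hairpin, at chr9:51103034-51103110, and the Mir34b hairpin, at chr9:51103562-51103645, lie on the minus strand 451 bases apart. Both sit within an intron of the protein-coding gene Btg4, which is transcribed from the opposite strand. These positions are on another build than the GRCm39 named in the submitters' processing notes.

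Total miRNA counts ran from 2198180 to 5166995 per TG library (median 4101287) and from 1774047 to 5592766 per SCG library (median 2916062). A limit of 3 counts corresponds to 0.581 to 1.36 CPM (counts scaled to a common library size, with trimmed mean of M-values factors) in TG and to 0.536 to 1.69 CPM in SCG, and such limits cover counting error only. The labelled tissues were checked against marker miRNAs. The summed level of the sensory neuron miRNAs miR-96-5p, miR-182-5p and miR-183-5p, all detected, was 57814 to 86816 CPM in TG and 218 to 21699 CPM in SCG. That of the neuronal miR-124-3p, miR-9-5p and miR-128-3p was 24920 to 56199 CPM in TG and 8059 to 35702 CPM in SCG. Some libraries stood apart. SCG 7 d LPS replicate 2 had a summed leukocyte marker level of 4696 CPM, against at most 535 CPM in the other 23 SCG libraries, a muscle sum of 35214 CPM and a glial sum of 38.2 CPM, against at least 380 CPM. SCG 24 h saline replicate 1 had the highest sensory sum in SCG, and SCG 4 h saline replicate 1 a muscle sum of 84059 CPM. TG 7 d saline replicates 1, 2 and 4 had neuron sums of 51409 to 56199 CPM, against 24920 to 34870 CPM in the other 21 TG libraries. Member values that turned or moved strongly without these libraries are given with and without them.

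MiR-34a-5p was a trigeminal miRNA in these data. Its lowest, median and highest levels were 308, 353 and 389 CPM in the 12 TG LPS libraries, against 5.55, 7.10 and 25.6 CPM in the 12 SCG LPS libraries. After saline they were 271, 344 and 481 CPM in TG, against 3.82, 7.13 and 77.5 CPM in SCG. Every TG library lay above every SCG library in both treatments. Counts per library were 755 to 2195 in TG and 8 to 234 in SCG, so the SCG level rests on few reads in most libraries. The level was 41.3-fold higher in TG after LPS (log2 5.37 ± 0.23, SE; 95% interval of the fold 29.8 to 57.4; adjusted p = 1.68e-14 by the quasi-likelihood F-test of edgeR with Benjamini-Hochberg adjustment) and 29.6-fold higher after saline (log2 4.89 ± 0.41; 16.49 to 53.04; adjusted p = 9.26e-10). It ranked 12 from the highest of 560 tested miRNAs after LPS and 6 from the highest of 541 after saline. Without SCG 4 h saline replicates 1 and 2 and SCG 24 h saline replicate 1 the log2 difference after saline was 5.496.

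The miR-34b/c members had the opposite preference. MiR-34c-5p, the one with the most counts, had lowest, median and highest levels of 22.2, 41.5 and 73.8 CPM in TG LPS libraries, against 73.8, 231 and 302 CPM in SCG LPS libraries. After saline they were 26.5, 34.5 and 89.2 CPM in TG, against 194, 239 and 273 CPM in SCG. Every TG library lay below every SCG library of the same treatment, although after LPS the lowest SCG value, in SCG 7 d LPS replicate 2, was only just above the highest TG value. The level was 5.06-fold lower in TG after LPS (log2 -2.34 ± 0.22; edgeR adjusted p = 8.01e-09) and 6.02-fold lower after saline (log2 -2.59 ± 0.17; 95% interval of the fold 4.69 to 7.73; edgeR adjusted p = 9.86e-12). Its rank from the lowest was 22 after LPS and 15 after saline.

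The other arms of the cluster were scarce. MiR-34b-3p averaged 6.03 ± 2.49 CPM in TG and 14.7 ± 3.25 CPM in SCG after LPS, and 5.59 ± 3.63 CPM in TG and 14.5 ± 5.19 CPM in SCG after saline (SD, n = 12 each). It fell by 1.31 ± 0.20 on the log2 scale in TG relative to SCG after LPS (edgeR adjusted p = 1.48e-05) and by 1.52 ± 0.24 after saline (edgeR adjusted p = 8.39e-06). The groups overlapped: 10 of 12 TG libraries after LPS and 11 of 12 after saline lay below all SCG libraries. MiR-34b-5p had 0 to 5 counts per TG library, with 5 of 24 libraries at 0, and 4 to 21 counts per SCG library. It averaged 0.523 ± 0.429 CPM in TG and 2.63 ± 1.44 CPM in SCG (SD, n = 24 each), and most TG values lay at or under the limit of 3 counts. Its log2 difference was -2.07 ± 0.38 after LPS (edgeR adjusted p = 0.000109) and -2.58 ± 0.34 after saline (edgeR adjusted p = 6.15e-07), and no TG library reached any SCG library of the same treatment. MiR-34c-3p averaged 1.04 ± 0.867 CPM in TG, with 3 of 24 libraries at 0, and 2.74 ± 1.11 CPM in SCG. Its log2 difference was -1.54 ± 0.40 after LPS (edgeR adjusted p = 0.00257) and -1.27 ± 0.36 after saline (edgeR adjusted p = 0.00364), with overlapping groups. MiR-34b-5p and miR-34c-3p reached the expression filter through their SCG libraries, so their calls are not counted as support.

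These calls stand against a background in which most miRNAs differed between the ganglia. Of all tested miRNAs 51.6% were called after LPS, with 24.3% higher and 27.3% lower in TG, and 66.4% after saline, with 31.4% higher and 34.9% lower. The count after LPS rose from 289 to 393 without SCG 7 d LPS replicate 2, and the difference between the treatments in this share was not tested. The groups did not overlap for 13.2% of miRNAs after LPS and 19.2% after saline. The contrast of miR-34a with miR-34b/c was known from earlier results of these data when the family was taken up, so the tests give its size against the spread between libraries. Over all 29 alternatives after LPS and 30 after saline, miR-34a-5p, miR-34b-3p and miR-34c-5p kept their direction and their call, with log2 differences of 5.26 to 5.62 and 4.65 to 5.496 for miR-34a-5p and -2.45 to -2.30 and -2.83 to -2.47 for miR-34c-5p.

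**Figure D1:**
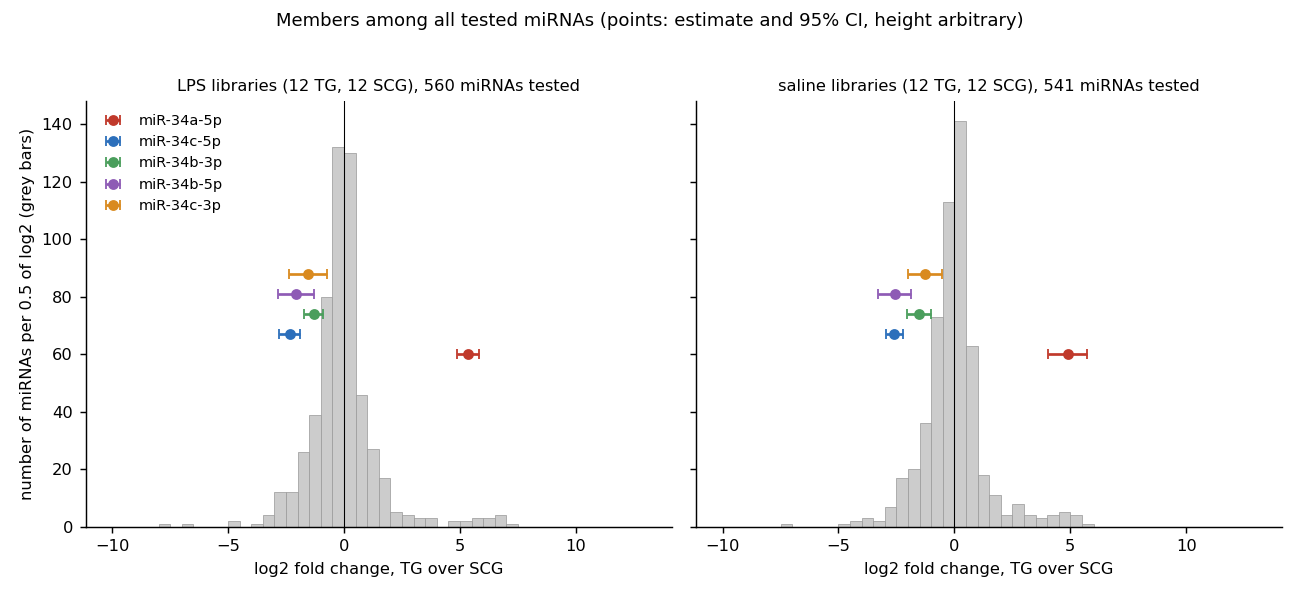
The log2 fold change of TG over SCG is shown for LPS libraries (left, 560 miRNAs) and saline libraries (right, 541 miRNAs), with grey bars counting all tested miRNAs and points with 95% intervals for the 5 members at arbitrary heights. MiR-34a-5p lies far to the right at 5.37 and 4.89, and the 4 miR-34b/c arms lie left of 0 between -2.59 and -1.27.

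The ratio of miR-34a-5p to miR-34c-5p within a library does not depend on scaling. On the log2 scale, with 0.5 added to each count, it was 3.07 ± 0.52 in TG and -4.73 ± 1.07 in SCG after LPS, and 3.14 ± 0.66 in TG and -4.65 ± 1.29 in SCG after saline (SD, n = 12 each). Every TG library had more counts of miR-34a-5p than of miR-34c-5p and every SCG library had fewer. The ligation-based library kit captures different miRNA ends with different efficiency, so more counts of 1 miRNA than of another do not show more molecules, and what is compared is the ratio in TG with that in SCG. The TG minus SCG difference was 7.80 after LPS and 7.79 after saline, each with a permutation p = 2e-05, the smallest that 100000 permutations can give in a two-sided test (adjusted p = 8e-05 over 8 ratio comparisons). The contrast was known from earlier results of these data, so these p-values are not counted as support.

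Between the 5p arms of miR-34b and miR-34c, which share a transcript, no difference in ratio was detectable. The log2 ratio of miR-34c-5p to miR-34b-5p was 6.14 ± 1.28 in TG and 6.34 ± 0.65 in SCG after LPS, and 6.52 ± 0.94 in TG and 6.54 ± 0.74 in SCG after saline (SD, n = 12). The differences of -0.20 and -0.02 did not pass (permutation test, adjusted p = 0.729 and 0.946). That does not show that the ratio is equal, since miR-34b-5p had few TG counts. The miR-34c-5p sequence was not among those matched, so sharing of reads between these 5p arms was not checked.

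The balance of the 2 arms of a hairpin differed less firmly. The log2 ratio of miR-34b-5p to miR-34b-3p was -3.28 ± 1.18 in TG and -2.49 ± 0.57 in SCG after LPS (permutation test, adjusted p = 0.0677), and -3.52 ± 0.84 in TG and -2.47 ± 0.84 in SCG after saline (permutation test, adjusted p = 0.0142). With 1 in place of 0.5 added to each count, the saline difference of -1.05 became -0.71 (adjusted p = 0.0511). The log2 ratio of miR-34c-5p to miR-34c-3p was 5.62 ± 0.96 in TG and 6.12 ± 0.72 in SCG after LPS (permutation test, adjusted p = 0.223), and 5.55 ± 1.31 in TG and 6.58 ± 0.54 in SCG after saline (permutation test, adjusted p = 0.0392). Leaving out any of 13 of the 24 saline libraries ended this last call (adjusted p = 0.0502 to 0.0677). Without TG 7 d saline replicates 1, 2 and 4 its adjusted p was 0.099, and without the 3 SCG saline libraries rich in muscle or sensory neuron miRNAs it was 0.0578.

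Summed over miR-34a-5p, miR-34b-5p, miR-34c-5p, miR-449a-5p and miR-449c-5p, the family level was 397 ± 42.6 CPM in TG and 242 ± 36.01 CPM in SCG (SD, n = 24 each). These are sums and shares of counts, which the capture of each miRNA also sets. MiR-34a-5p held 88.3% ± 4.40 of it in TG and 4.89% ± 5.77 in SCG, and miR-34c-5p held 10.9% ± 4.33 in TG and 92.9% ± 9.27 in SCG. The share of miR-34a-5p in SCG was highest, 25.4%, in SCG 24 h saline replicate 1.

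**Figure D2:**
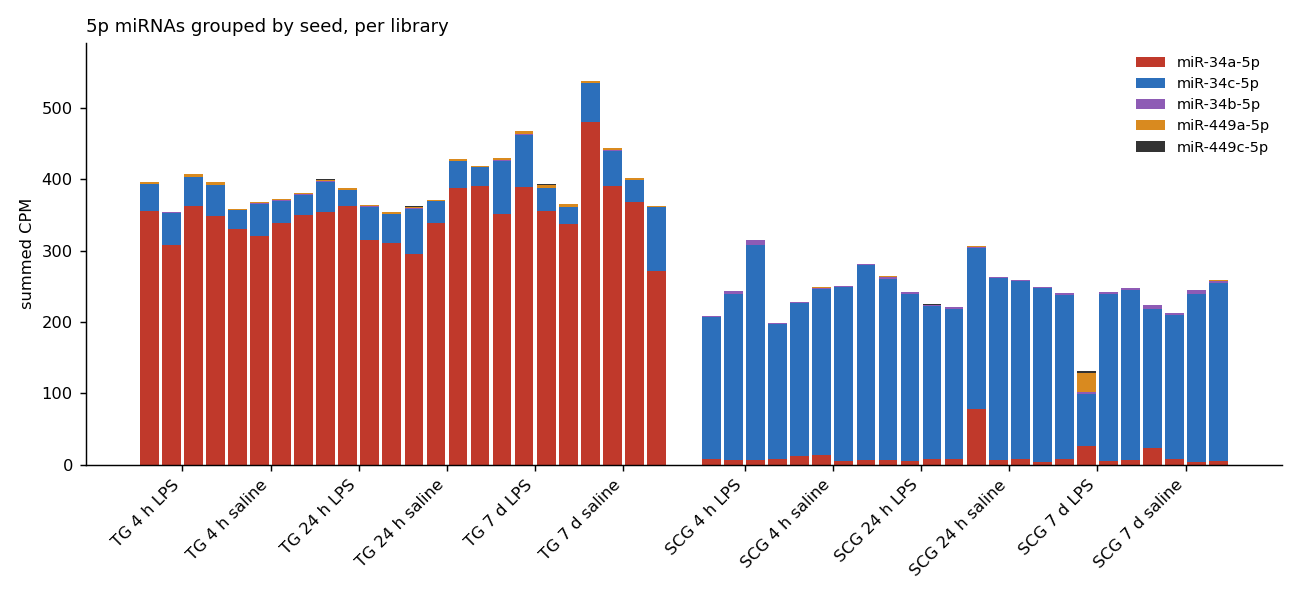
Each bar is 1 library and stacks the CPM of the 5p miRNAs of the family and its miR-449 relatives, with TG libraries left of SCG libraries and replicates 1 to 4 in order within each group. TG bars are mostly miR-34a-5p and SCG bars mostly miR-34c-5p, and the shortest SCG bar, SCG 7 d LPS replicate 2, reaches 132 CPM.

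Over the 12 groups, mean miR-34a-5p levels ran in the order TG 7 d saline (378 CPM), TG 7 d LPS (358), TG 24 h saline (353), TG 4 h LPS (343), TG 24 h LPS (335), TG 4 h saline (335), SCG 24 h saline (24.0), SCG 7 d LPS (11.4), SCG 7 d saline (10.2), SCG 4 h saline (9.26), SCG 24 h LPS (7.15) and SCG 4 h LPS (6.97). Only the step between the ganglia separated neighbours: the ranges of 10 of 11 neighbouring pairs overlapped. For miR-34c-5p the SCG groups led, with means of 194 to 243 CPM, and the TG groups followed, at 33.1 to 55.9 CPM. Ranges overlapped in all 11 neighbouring pairs, and SCG 7 d LPS and TG 7 d saline, the pair at the step, met only through SCG 7 d LPS replicate 2. For miR-34b-5p 10 of 11 pairs overlapped, and for miR-34b-3p and miR-34c-3p 11 of 11.

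**Figure D3:**
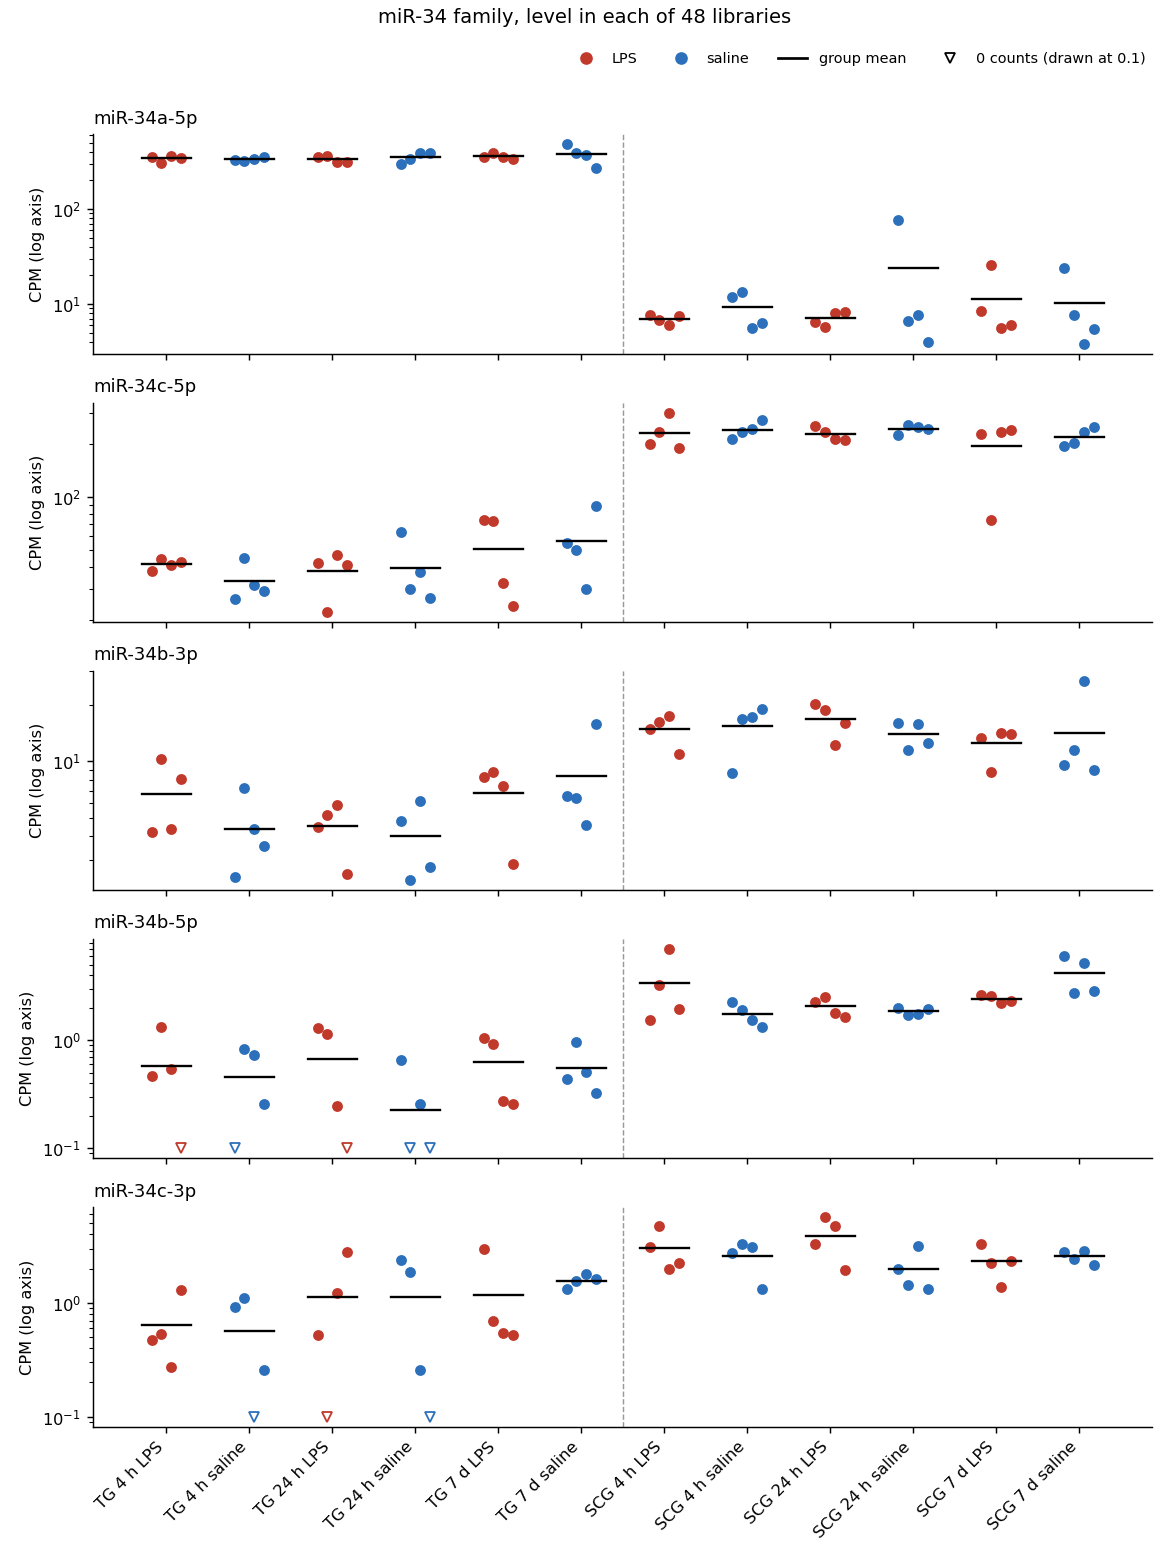
Levels of the 5 members in CPM on log axes are shown for each of 48 libraries, with 4 points a group, LPS in red, saline in blue, bars at group means and open triangles for libraries with 0 counts. MiR-34a-5p is at 271 to 481 CPM in TG and 3.82 to 77.5 CPM in SCG, and the other 4 members sit higher in SCG.

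The second question was whether the family moved with LPS. In TG, miR-34a-5p varied least in TG 4 h saline (SD 12.4 CPM) and most in TG 7 d saline (SD 85.9 CPM). It was at 355, 308, 362 and 349 CPM in TG 4 h LPS, against 331, 320, 339 and 349 CPM in TG 4 h saline. At 24 h it was at 354, 362, 315 and 310 CPM after LPS, against 295, 339, 388 and 390 CPM after saline. At 7 d it was at 351, 389, 355 and 337 CPM after LPS, against 481, 390, 369 and 271 CPM after saline. The groups overlapped at each time, and the 2 most distant values of the 24 both came from TG 7 d saline. The log2 fold changes were 0.03, -0.06 and -0.06 (SE 0.12 each), with 95% intervals of -0.23 to 0.29, -0.32 to 0.19 and -0.31 to 0.20.

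MiR-34c-5p was more variable in TG. It was at 38.1, 44.6, 40.9 and 42.97 CPM in TG 4 h LPS, against 26.5, 45.3, 31.5 and 29.1 CPM in TG 4 h saline. At 24 h it was at 42.05, 22.2, 46.7 and 40.9 CPM after LPS, against 63.5, 29.96, 37.4 and 26.7 CPM after saline. At 7 d it was at 73.8, 72.9, 32.5 and 23.9 CPM after LPS, against 54.5, 49.9, 29.9 and 89.2 CPM after saline. At 7 d the female LPS pair lay above the male pair, and the saline libraries spread as widely. The log2 fold changes of LPS over saline were 0.34, 0.02 and -0.18 (SE 0.36 each).

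In SCG, miR-34c-5p had a steady level. It was at 199, 233, 302 and 189 CPM in SCG 4 h LPS, against 214, 233, 244 and 273 CPM in SCG 4 h saline. At 24 h it was at 254, 233, 215 and 210 CPM after LPS, against 226, 255, 249 and 244 CPM after saline. At 7 d it was at 229, 73.8, 234 and 239 CPM after LPS, against 194, 202, 235 and 250 CPM after saline. The groups overlapped at each time, and SCG 7 d LPS replicate 2 was the lowest SCG library. The log2 fold changes were -0.13, -0.07 and -0.24 (SE 0.24 each), and without SCG 7 d LPS replicate 2 that of 7 d was 0.04.

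MiR-34a-5p in SCG varied through single libraries. It was at 7.68, 6.78, 6.01 and 7.42 CPM in SCG 4 h LPS, against 11.8, 13.3, 5.603 and 6.29 CPM in SCG 4 h saline. At 24 h it was at 6.54, 5.66, 8.09 and 8.30 CPM after LPS, against 77.5, 6.63, 7.72 and 3.95 CPM after saline. At 7 d it was at 8.53, 25.6, 5.55 and 6.004 CPM after LPS, against 24.0, 7.64, 3.82 and 5.43 CPM after saline. The other 21 SCG libraries lay between 3.82 and 13.3 CPM, and 1 library each of SCG 24 h saline, SCG 7 d LPS and SCG 7 d saline lay above 20 CPM. The log2 fold changes of LPS over saline were -0.33 ± 0.67, -1.21 ± 0.67 and 0.20 ± 0.65. The value at 24 h was 0.21 without SCG 24 h saline replicate 1, and that at 7 d was -0.32 without SCG 7 d LPS replicate 2.

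No member was called at any time in either ganglion. The share of all miRNAs called by edgeR was 0.0%, 0.372% and 6.13% in TG at 4 h, 24 h and 7 d, of 538 tested, and 0.0%, 0.395% and 0.593% in SCG, of 506 tested. The 33 calls in TG at 7 d fell to 1 against saline of 4 h and 24 h. Without TG 7 d saline replicates 1, 2 and 4 only replicate 3 remained in that group, too few to read a count of calls. In 21 tests of members the smallest edgeR adjusted p was 0.570, and 1 had an unadjusted p under 0.05. That was miR-34c-3p in SCG at 24 h, at 3.27, 5.66, 4.79 and 1.94 CPM after LPS, against 1.99, 1.44, 3.16 and 1.32 CPM after saline. Of the LPS libraries 3 of 4 lay above all saline libraries, on 7 to 20 against 4 to 9 counts. The log2 fold change was 0.98 ± 0.37 (edgeR adjusted p = 0.635). DESeq2 called 0 members in these comparisons. MiR-34b-5p in SCG at 7 d, under the filter and not tested, was at 2.61, 2.59, 2.22 and 2.33 CPM after LPS, against 5.99, 2.73, 5.26 and 2.89 CPM after saline. All LPS libraries lay below all saline libraries, on 7 to 11 against 8 to 15 counts, and 11.9% of the tested miRNAs also did not overlap, in one direction or the other. In the other 5 comparisons the groups overlapped for all 5 members, against non-overlap for 2.6%, 2.42% and 6.51% of tested miRNAs in TG at 4 h, 24 h and 7 d and 1.58% and 4.55% in SCG at 4 h and 24 h. Intervals for miR-34a-5p in SCG were wide, with log2 limits of -1.71 to 1.06 at 4 h, -2.61 to 0.19 at 24 h and -1.15 to 1.56 at 7 d, so a change of that size would not have been detectable.

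**Figure D4:**
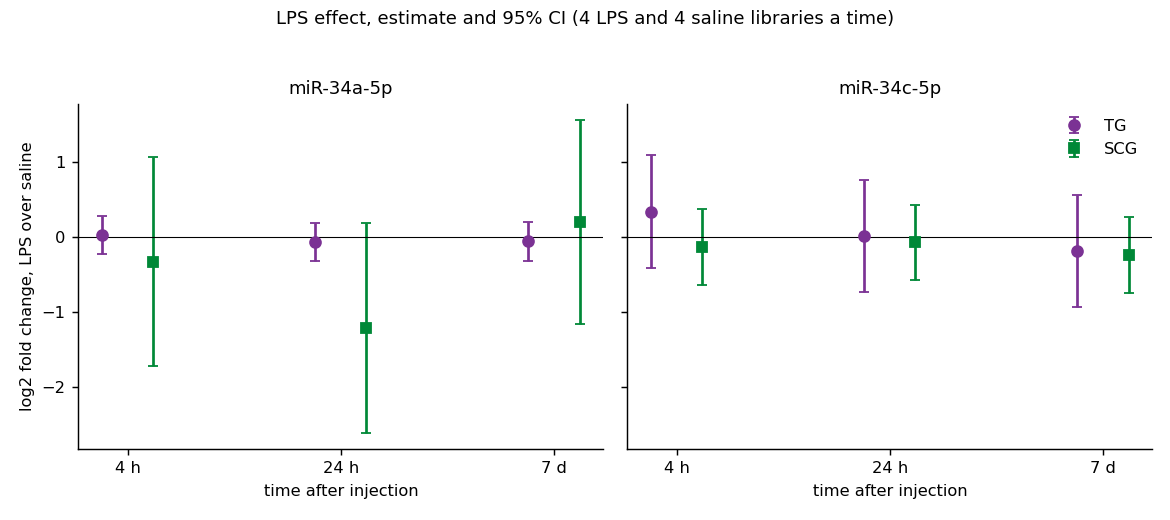
Log2 fold changes of LPS over saline with 95% intervals are shown at 4 h, 24 h and 7 d for miR-34a-5p (left) and miR-34c-5p (right), with TG as circles left of SCG as squares. All 12 intervals cover 0, and those of miR-34a-5p are narrow in TG (SE 0.12) and wide in SCG (SE 0.65 to 0.67).

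The LPS effect was also compared between the ganglia in 1 fit of all 48 libraries. None of 15 interaction tests of members was called, and none had an unadjusted p under 0.05 (smallest edgeR adjusted p = 0.520). The share of all 577 tested miRNAs with a called interaction was 0.0% at 4 h, 0.0% at 24 h and 0.347% at 7 d.

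Time after injection was compared as 7 d against the mean of 4 h and 24 h. In 14 tests 0 members were called, 2 of them with an unadjusted p under 0.05, both in TG after saline. MiR-34b-3p there was at 6.57, 6.41, 4.604 and 15.8 CPM at 7 d, against 2.34 to 7.18 CPM at 4 h and 24 h (log2 0.96 ± 0.37, edgeR adjusted p = 0.0857). MiR-34c-5p had a log2 difference of 0.65 ± 0.30 (edgeR adjusted p = 0.159). For both the highest value came from TG 7 d saline replicate 4, and the other 3 libraries of 7 d lay within the earlier range. In this comparison 13.6% of all tested miRNAs were called, a count of 73. TG 7 d saline replicates 1, 2 and 4 were the libraries with high neuron sums. Without them only replicate 3 remained at 7 d, too few to read a count of calls. With that library alone at 7 d the differences were 0.25 for miR-34b-3p and -0.08 for miR-34c-5p. When only replicate 3 was left out, miR-34b-3p was called (log2 1.14, edgeR adjusted p = 0.0366). The part of the neuron markers in these values was not tested. In the other 3 time comparisons 0.0% (TG LPS), 1.78% (SCG LPS) and 0.0% (SCG saline) of all miRNAs were called.

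Between the sexes 0 members were called in 7 tests, against 0.0% of all miRNAs in TG and 0.988% in SCG. MiR-34a-5p in SCG had the smallest p. Its lowest, median and highest levels were 3.82, 6.01 and 8.30 CPM in 12 male libraries, against 5.66, 8.11 and 77.5 CPM in 12 female libraries. All 3 SCG libraries above 20 CPM were female, and the ranges overlapped below that. The log2 difference was -1.14 ± 0.40 (edgeR adjusted p = 0.184; DESeq2 adjusted p = 0.0452; edgeR with no filter on low counts 0.00203), and it was -0.76 without SCG 24 h saline replicate 1. The summed sensory neuron markers had a median of 859 CPM in the male and 1998 CPM in the female SCG libraries, and their part in the difference was not tested.

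Within each ganglion the members were related to each other and to marker miRNAs across libraries, after group means were removed from log2(CPM + 0.5). With the means of 6 groups removed, the 24 values are not fully independent, so p-values near the limit of 0.05 may be too small. Differences between the sexes were not removed. Values of 1 library share its total, and 18 relations were computed, 12 of them chosen after seeing the data. The p-values are not adjusted for that choice. MiR-34b-3p and miR-34c-5p, from the shared transcript, went together in TG, with r = 0.66 and rho = 0.66 (permutation test, adjusted p = 0.00176 and 0.0022, n = 24; r = 0.52 without the 2 farthest libraries). In SCG they had r = 0.47 and rho = 0.54 (permutation test, adjusted p = 0.0555 and 0.0148; r = 0.55 without the 2 farthest). MiR-34a-5p and miR-34c-5p went in opposite directions in SCG, with r = -0.53 and rho = -0.68 (permutation test, adjusted p = 0.0445 and 0.00112; r = -0.68 without the 2 farthest). Without SCG 7 d LPS replicate 2 this r was -0.45 and rho -0.65 (permutation test, adjusted p = 0.0532 and 0.00439). With the 2 farthest of the remaining libraries also left out, r was -0.42. In TG r of this pair was -0.35 (permutation test, adjusted p = 0.136; rho = -0.30, adjusted p = 0.196).

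In SCG, miR-34a-5p followed the miR-183 cluster of sensory neurons. The r with the sum of its 3 miRNAs was 0.83 and rho 0.75 (permutation test, adjusted p = 6e-05 and 0.00018, n = 24), and r was 0.64 without the 2 farthest libraries and 0.83 without SCG 7 d LPS replicate 2. In TG the same r was 0.14 and rho 0.09 (permutation test, adjusted p = 0.534 and 0.716). The SCG library with the highest sensory sum, 21699 CPM in SCG 24 h saline replicate 1, was also the highest in miR-34a-5p, and SCG 7 d saline replicate 1 had the next sensory sum, 6801 CPM, and 24.0 CPM of miR-34a-5p. Per 1000 CPM of the sensory sum, miR-34a-5p was at 3.81 to 8.18 CPM in TG (median 4.69) and 1.95 to 25.97 CPM in SCG (median 6.46). SCG 7 d LPS replicate 2, high in miR-34a-5p at a sensory sum of 2030 CPM, had 12.6 on this scale. In SCG the median of miR-34a-5p was 8.11 CPM in female and 6.01 CPM in male libraries. That of the sensory sum was 1998 CPM in female and 859 CPM in male libraries, and the part of sex in this r was not tested. The part of sensory neuron RNA in the SCG level of miR-34a-5p was not tested either.

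MiR-34c-5p followed miR-7a-5p, a miRNA enriched in neuroendocrine cells. This relation was chosen after seeing the data, and miR-7a-5p ranked 3 of 572 miRNAs by r with miR-34c-5p over the 12 group means. The p-values are not adjusted for that choice and are not counted as support. In SCG r was 0.95 and rho 0.82 (permutation test, adjusted p = 6e-05 and 0.00018, n = 24), and r was 0.85 without the 2 farthest libraries and 0.87 without SCG 7 d LPS replicate 2. In TG r was 0.60 and rho 0.53 (permutation test, adjusted p = 0.0045 and 0.0168; r = 0.54 without the 2 farthest). SCG 7 d LPS replicate 2 was lowest in SCG in both, with 5974 CPM of miR-7a-5p, against 27819 to 42183 CPM in the other 23 libraries. In TG 24 h LPS replicate 3 miR-7a-5p was at 25854 CPM and miR-34c-5p at 46.7 CPM, while in TG 7 d saline replicate 4 they were at 24344 and 89.2 CPM. MiR-7a-5p stands on the epithelium and pituitary marker list. The sum of the other 8 markers of that list, all detected, was 137 to 6468 CPM in TG and 257 to 11439 CPM in SCG. Its r with miR-34c-5p was 0.51 in TG and rho 0.49 (permutation test, adjusted p = 0.0241 and 0.0271; r = 0.33 without the 2 farthest), and -0.73 in SCG and rho -0.60 (permutation test, adjusted p = 0.000225 and 0.00708; r = -0.60 without the 2 farthest). The part of such cells in the miR-34c-5p level was not tested.

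**Figure D5:**
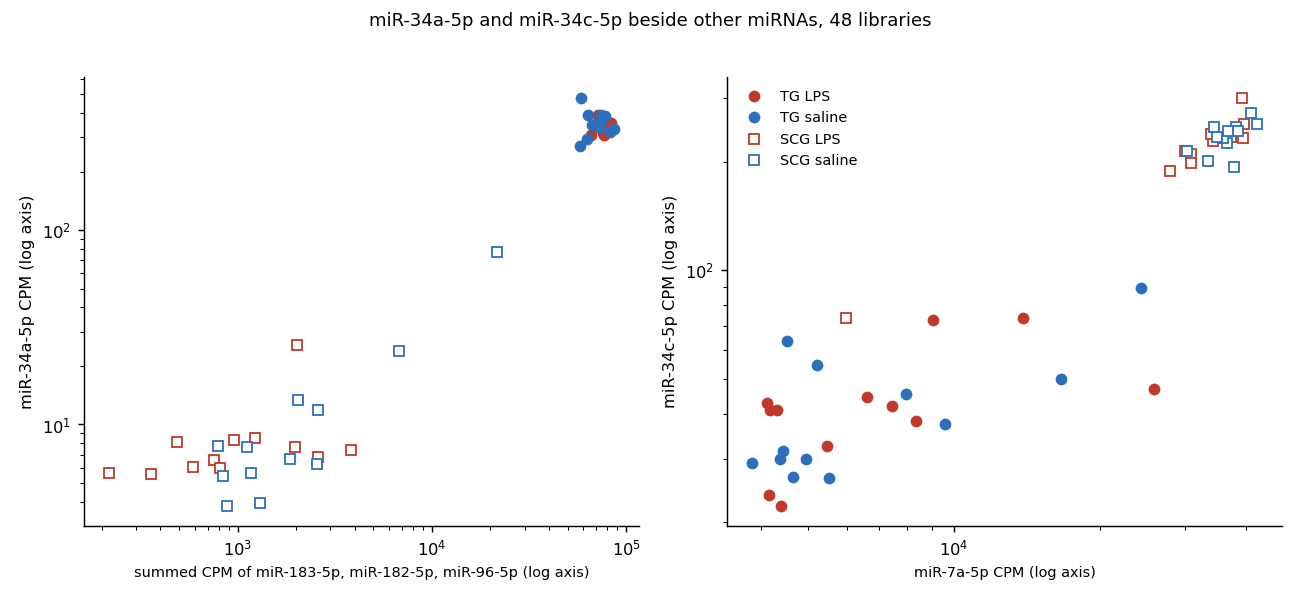
Each point is 1 of 48 libraries on log axes, with miR-34a-5p against the summed sensory neuron markers (left) and miR-34c-5p against miR-7a-5p (right), TG filled and SCG open, LPS red and saline blue. SCG 24 h saline replicate 1 lies nearest to the TG libraries on the left at 77.5 CPM, and SCG 7 d LPS replicate 2 lies among the TG libraries on the right at 73.8 CPM.

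The miRNAs most like each 5p member were taken from 572 candidates by Pearson's r, as a description with no test. Over the 12 group means the difference between the ganglia dominates every such r. It was highest with miR-135b-5p (0.996), miR-216b-3p (0.995) and miR-592-5p (0.995) for miR-34a-5p, and with miR-615-3p (0.994), miR-10a-5p (0.992) and miR-7a-5p (0.989) for miR-34c-5p. MiR-615 and miR-10a are encoded in the Hox clusters, which mark position along the body axis. For miR-34b-5p it was highest with miR-215-5p (0.954), miR-365-1-5p (0.953) and miR-455-5p (0.942). Over the 48 libraries with group means removed, miR-34a-5p was most like all 3 miRNAs of the miR-183 cluster, miR-182-5p (0.834), miR-96-5p (0.817) and miR-183-5p (0.775). These values pool both ganglia, and r with the sum of the 3 was 0.83 within SCG but 0.14 within TG. Over the same 48 libraries miR-34c-5p was most like miR-344c-3p (0.787), miR-7b-5p (0.747) and miR-1298-5p (0.746). MiR-34b-5p had no r above 0.367, with miR-211-5p.

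Other miRNAs linked to p53 were read from a list of 19 names, 18 of them in the table. They did not share 1 direction between the ganglia. After LPS 4 of 18 tested were higher and 5 lower in TG, which is 50% called beside 51.6% of all miRNAs. That share of all miRNAs depended on SCG 7 d LPS replicate 2, without which the count rose from 289 to 393. After saline 8 were higher and 7 lower, which is 83.3% beside 66.4% of all miRNAs. The list's median log2 difference was 0.12 after LPS and 0.15 after saline, beside -0.11 and -0.00 over all tested miRNAs. The largest called differences after saline were those of miR-141-3p (3.10 ± 0.87, edgeR adjusted p = 0.00377) and miR-200c-3p (3.05 ± 1.105, edgeR adjusted p = 0.0195), both of the epithelial miR-200 family. After LPS neither was called, at 2.78 ± 1.58 for miR-141-3p (edgeR adjusted p = 0.15) and 2.87 ± 1.55 for miR-200c-3p (edgeR adjusted p = 0.13). Pooled over LPS and saline, the levels of both were spread widely. Means were 19.8 ± 24.1 CPM in TG and 16.2 ± 71.8 CPM in SCG for miR-141-3p. For miR-200c-3p they were 154 ± 171 CPM in TG and 127 ± 479 CPM in SCG (SD, n = 24 each throughout). MiR-215-5p, which targets cell cycle genes, was lower in TG by both treatments (-2.06 ± 0.25 after LPS and -2.06 ± 0.21 after saline), at 1.88 ± 0.981 CPM in TG and 7.62 ± 2.78 CPM in SCG. MiR-143-3p and miR-145a-5p, a smooth muscle and fibroblast cluster, had log2 differences of -2.77 ± 0.37 and -2.89 ± 0.35 after LPS and of -1.94 ± 0.27 and -1.88 ± 0.29 after saline.

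With LPS, 1 of 18 tested p53-linked miRNAs was called in TG at 7 d, miR-1249-3p (log2 -0.62 ± 0.16, edgeR adjusted p = 0.024). That is 5.56% of the list beside 6.13% of all miRNAs. Set against saline of 4 h and 24 h, LPS in TG at 7 d had 1 call among all miRNAs. TG 7 d saline replicates 1, 2 and 4 had high neuron sums. The list had 0 calls in TG at 4 h and 24 h and in SCG at any time. In TG after saline miR-215-5p was higher at 7 d than before (log2 1.20 ± 0.38, edgeR adjusted p = 0.0409), a comparison that rests on the same TG 7 d saline libraries. MiR-215-5p was also higher in male than in female SCG (log2 0.84 ± 0.17, edgeR adjusted p = 0.0187). The list had 0 calls in the other time comparisons, in male against female TG and in the interaction tests.

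The remaining products of these hairpins and of the miR-449 relatives were near the detection limit. MiR-34a-3p, the other arm of the Mir34a hairpin, had 21 counts over 12 of 24 TG libraries and 0 counts in the 24 SCG libraries, whose 74939303 counts in sum allow a level of up to 0.0400 CPM. MiR-449a-5p, from the intron of Cdc20b, had 3 to 20 counts per TG library (2.55 ± 1.08 CPM, SD, n = 24) and at most 1.02 CPM in 23 of 24 SCG libraries. In TG at 7 d it was at 3.83, 4.63, 4.92 and 3.63 CPM after LPS, against 2.19, 2.72, 2.05 and 1.94 CPM after saline. All 4 LPS libraries lay above all saline libraries, on 14 to 20 against 6 to 14 counts, and non-overlap was seen for 6.51% of tested miRNAs. The log2 fold change was 0.91 ± 0.31 (edgeR adjusted p = 0.0714). In SCG 7 d LPS replicate 2 it reached 26.9 CPM on 83 counts, beside 9 of the 10 SCG counts of miR-449c-5p. MiR-449b, a further marker of multiciliated epithelium, and miR-449c-3p were at 0 in every library.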

How the data were processed

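Small RNA libraries were made from 140 ng of RNA with a NEBNext ligation kit and sequenced on an Illumina NextSeq instrument, per the labels' protocols. The authors deposited 1 table of raw read counts per mature miRNA, with no normalization. The submitters' processing notes name FastQC 0.11.9 and GRCm39, with the aligner and counter not given in the sources used here. The columns of 2 libraries were matched although they spell LPS as PS.

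Counts were tested with edgeR 4.0.16 (limma 3.58.1, R 4.3.3): TMM scaling, filterByExpr with a minimum count of 10, robust quasi-likelihood fits and Benjamini-Hochberg adjustment over all tested miRNAs, with calls at an adjusted p under 0.05. LPS, time and sex were tested within each ganglion (24 libraries, 6 groups plus sex), ganglia within each treatment (time plus sex), and the interaction over 48 libraries. Which TG and SCG libraries share a mouse is not labelled, so they entered as separate samples. Ratios used 0.5 added to each count and 100000 permutations with Python 3.11.15 and scipy 1.17.1. DESeq2 1.42.0, no filter, other scaling and leaving out libraries were alternatives.

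All 5 members were reported, and the 3 miRNAs most like each 5p member by Pearson's r were named. Members, marker lists and the p53 list were chosen with earlier results of these data known. The labels give separate mice per group but no batch, so p-values measure the spread between these libraries. Depth was 1774047 to 5592766 counts per library.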

Additional observations from a re-analysis of the deposited data

Results flagged for a closer look

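In groups of 4 libraries, a library was taken to stand apart when its gap to the nearest other, divided by the group's range, was above Dixon's 95% critical value. Of 60 groups of the members 6 held such a library, and chance gives about 1 in 20. MiR-34a-5p was at 77.55 CPM in SCG 24 h saline replicate 1, against 3.95 to 7.72 CPM in the other 3 libraries, and at 25.59 CPM in SCG 7 d LPS replicate 2, against 5.55 to 8.53 CPM. The same SCG 7 d LPS library was low in miR-34c-5p, at 73.85 CPM against 229 to 239 CPM, and in miR-34b-3p, at 8.745 CPM against 13.3 to 14.2 CPM. MiR-34b-3p was at 26.77 CPM in SCG 7 d saline replicate 3, against 9.04 to 11.5 CPM. MiR-34c-3p was at 2.978 CPM in TG 7 d LPS replicate 1, against 0.519 to 0.694 CPM.

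Among the relatives, miR-449a-5p was at 26.88 CPM in SCG 7 d LPS replicate 2, against 0 to 0.474 CPM in the other 3 libraries. It was at 0.7236 CPM in SCG 7 d saline replicate 4, on counts near the detection limit, and at 1.218 CPM in TG 4 h saline replicate 1, against 2.20 to 2.30 CPM. SCG 7 d LPS replicate 2 accounts for 4 of the 9 values. Its leukocyte sum was 4696 CPM, against 155 to 535 CPM in the other SCG libraries, its neuron sum 35702 CPM, against 8059 to 17528 CPM, and its glial sum 38.2 CPM, against 380 to 840 CPM. Their part in these values was not tested.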

How the results depend on the processing

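The TG against SCG calls of miR-34a-5p, miR-34b-3p and miR-34c-5p held in every alternative (largest adjusted p 0.000134). Counts of all miRNAs called moved more. DESeq2 called 1, 7 and 52 for LPS in SCG at 4 h, 24 h and 7 d, 2 and 55 in TG at 4 h and 7 d, 31 and 2 for time after LPS in SCG and TG, 25 for sex in SCG (1 member, miR-34a-5p) and 3 and 66 interactions at 24 h and 7 d. With no filter the LPS counts were 24, 15 and 69 in SCG and 16, 20 and 54 in TG, those for time 12 (SCG saline), 54 (SCG LPS) and 16 (TG LPS), for sex 40 in SCG (1 member) and 19 in TG, for interactions 14, 12 and 81, and 2 members were called for time in TG after saline (miR-34b-3p, adjusted p = 0.00271, and miR-34c-5p, 0.000954). Without the sex term 7 were called for LPS in SCG at 7 d, 24 for time in SCG after LPS, and 1 and 20 interactions at 24 h and 7 d. Relative log expression factors gave 12 interactions at 7 d. Fits of the 8 libraries of 1 time gave 2, 5 and 0 for LPS in SCG and 1 each in TG at 24 h and 7 d. Without SCG 7 d LPS replicate 2 the counts were 3 and 6 for LPS in SCG at 4 h and 24 h, 0 for time in SCG after LPS, 32 for sex in SCG and 18 interactions at 7 d. Without that library 393 miRNAs were called for TG against SCG after LPS, beside 289 in the main fit. Without TG 7 d saline replicates 1, 2 and 4 only replicate 3 remained in that group, so counts of calls from those fits are not given. LPS in TG at 7 d gave 1 call when set against saline of 4 h and 24 h.

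Leaving out 1 library gave 0 to 2 and 3 to 32 calls for LPS in SCG at 4 h and 7 d, 0 to 1, 1 to 3 and 18 to 88 in TG, 0 to 45 and 0 to 1 for time after LPS in SCG and TG, 32 to 131 for time in TG after saline (0 to 1 members), 1 to 32 for sex in SCG, and 0 to 3 and 0 to 62 interactions at 24 h and 7 d.

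Signs of uncalled LPS effects turned. MiR-34c-5p in TG at 24 h was at -0.0079 (DESeq2), -0.0220 (no sex term), -0.0095 (relative log expression) and -0.0223 (8 libraries of that time), and in TG at 7 d at 0.54 without the 3 TG 7 d saline libraries and 0.47 against earlier saline, where miR-34a-5p was at 0.067. Without SCG 7 d LPS replicate 2 miR-34a-5p in SCG at 7 d was at -0.32 and miR-34c-5p at 0.044. Without 3 SCG saline libraries miR-34a-5p in SCG at 24 h was at 0.21. For time in TG after saline miR-34c-5p was at -0.084 without the 3 TG libraries, with only TG 7 d saline replicate 3 left at 7 d. Leaving out 1 library, miR-34c-5p ran from -0.23 to 0.00065, -0.17 to 0.013 and -0.35 to 0.044 in SCG at 4 h, 24 h and 7 d, and from -0.17 to 0.27 and -0.36 to 0.26 in TG at 24 h and 7 d. MiR-34a-5p ran from -1.52 to 0.21 and -0.32 to 0.72 in SCG at 24 h and 7 d, and from -0.025 to 0.088, -0.17 to 0.0053 and -0.16 to 0.075 in TG.

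For log2 ratios, 1 added to each count gave -0.70 (adjusted p = 0.0487) for miR-34c 5p over 3p after LPS and -0.71 (0.0511) for miR-34b 5p over 3p after saline. MiR-34c 5p over 3p after saline was -1.11 (0.0578) without the 3 SCG libraries and -0.94 (0.099) without the 3 TG libraries, and -1.26 to -0.88 leaving out 1 library. MiR-34c-5p over miR-34b-5p after saline was 0.018 without the 3 SCG libraries and -0.16 to 0.096 leaving out 1, and miR-34b 5p over 3p after LPS was -0.94 to -0.54, called without TG 24 h LPS replicate 1 or 2. The r of miR-34a-5p and miR-34c-5p in SCG was -0.449 (0.0532) without SCG 7 d LPS replicate 2. Without the 3 SCG libraries that of miR-34a-5p and miR-34b-3p was -0.499 (0.0416), and that of miR-34c-5p and the sensory sum was -0.485 (0.0416). The causes were not tested.

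The exclusion of the 3 TG libraries, that of the 3 SCG libraries from ratios and correlations, and the relations with marker sums and miR-7a-5p were chosen after seeing the data. No paired analysis was possible because the labels do not say which TG and SCG libraries share a mouse. At 0 to 14 counts in TG, miR-34b-5p and miR-34c-3p are limited by depth.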
